A study of Mus musculus with 8 samples.

Results

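Collagens are the main structural proteins of the extracellular matrix, and each is a triple helix wound from chains that are encoded by separate genes. The collagen chain genes described here are the protein-coding genes whose mouse symbol has the form Col, number, a, number. The table of expression values held 35275 genes, and 44 of them met that form. By textbook classes these were 11 fibrillar chains, 6 basement membrane (type IV) chains, 6 type VI chains, 9 FACIT chains (fibril-associated collagens with interrupted triple helices), 2 multiplexins, 4 transmembrane collagens, 4 chains of network and anchoring fibril collagens and 2 other chains.

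RNA came from myotubes, the multinucleated muscle fibres that form in culture when myogenic progenitor cells (MPCs) fuse. The MPCs were primary cells of C57BL6/J mice, and were differentiated in a high-glucose medium (DMEM) that held 10% horse serum and antibiotics. In the MPC EV groups, myotubes were incubated for 12 h or 24 h with extracellular vesicles (EVs) from MPCs, and in the control groups for the same times with EVs isolated from growth medium, so every group received vesicles and none was untreated. Each of the 4 groups had 2 libraries, and the labels do not say whether a group's pair was grown separately. The p-values therefore reflect only how far these libraries varied, possibly for technical reasons.

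Fibrillar collagens (types I, III and V here) form the cables of connective tissue, and type V chains help to start fibrils and set their diameter. Type IV collagen is the network of the basement membrane that sheathes every muscle fibre, and type VI microfibrils link that sheath to the fibrillar matrix. FACIT collagens sit on fibril surfaces, and transmembrane collagens such as those of types XIII and XXV are held at the cell surface, where they take part in forming the neuromuscular junction. In muscle tissue most fibrillar collagen is made by fibroblasts, while muscle cells themselves make basement membrane chains and some transmembrane collagens.

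Promoter sequences were available in a RefSeq table (build GRCm38.p6, the assembly also called mm10) for 35 of the 44 genes. Those of Col5a3, Col8a2 and Col25a1 are shown because these genes had large differences with MPC EVs, and that of Col3a1 because it is an abundant fibrillar chain that did not pass the test of either MPC EV comparison. Each is the 250 bases before the annotated start, 5′ to 3′ on the gene's strand. Capitals mark matches on either strand to the TATA box (TATAAA), the CCAAT box (CCAAT), the GC box (GGGCGG) or the AP-1 site (TGANTCA), and overlapping matches were each marked.
Col3a1, chr1:45311288-45311537, plus strand: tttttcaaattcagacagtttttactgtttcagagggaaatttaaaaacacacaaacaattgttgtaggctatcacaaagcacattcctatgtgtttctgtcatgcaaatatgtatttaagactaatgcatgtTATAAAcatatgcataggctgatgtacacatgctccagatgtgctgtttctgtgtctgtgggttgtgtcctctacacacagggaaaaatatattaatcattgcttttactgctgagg
Col25a1, chr3:130180595-130180844, plus strand: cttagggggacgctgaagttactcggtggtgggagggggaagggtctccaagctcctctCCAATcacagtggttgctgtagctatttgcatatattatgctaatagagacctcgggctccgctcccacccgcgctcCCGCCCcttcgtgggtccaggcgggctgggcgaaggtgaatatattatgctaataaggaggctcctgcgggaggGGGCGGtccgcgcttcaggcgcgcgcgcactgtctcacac
Col8a2, chr4:126286544-126286793, plus strand: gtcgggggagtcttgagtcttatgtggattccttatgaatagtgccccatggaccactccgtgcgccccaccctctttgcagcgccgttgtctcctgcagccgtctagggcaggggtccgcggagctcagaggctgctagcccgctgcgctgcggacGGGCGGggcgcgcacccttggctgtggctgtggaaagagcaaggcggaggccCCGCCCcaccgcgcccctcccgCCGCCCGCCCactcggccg
Col5a3, chr9:20815068-20815317, minus strand: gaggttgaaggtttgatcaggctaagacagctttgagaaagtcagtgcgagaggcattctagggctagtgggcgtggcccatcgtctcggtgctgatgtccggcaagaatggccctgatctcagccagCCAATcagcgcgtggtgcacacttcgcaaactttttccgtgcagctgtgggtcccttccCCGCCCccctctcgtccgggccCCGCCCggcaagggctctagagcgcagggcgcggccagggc
The Col3a1 stretch held 1 TATA box and no GC box at a GC content of 35.2%. The Col8a2 stretch held 4 GC boxes and no TATA or CCAAT box, and its last base is the first base of the annotated gene. Col25a1 and Col5a3 each had 1 CCAAT box and 2 GC boxes. The Col25a1 stretch lies inside the gene annotated by GENCODE, which begins upstream at 130131501, in a part with no annotated exon.

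Col4a3 and Col4a4, chains of the basement membrane collagen of the kidney filter, are transcribed away from each other, and their annotated starts are 71 bases apart. That stretch is shown because the pair shares it, and it held none of these 4 motifs. It is printed 5′ to 3′ on the strand of Col4a4. Its first base is therefore next to the Col4a3 start and its last base next to the Col4a4 start.
Col4a4 to Col4a3, chr1:82586850-82586920, minus strand: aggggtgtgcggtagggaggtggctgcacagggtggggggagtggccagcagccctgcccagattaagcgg
Among the 35 genes, 21 (60.0%) held a GC box, against 32.7% of the 32851 promoters of that length in the RefSeq table. A collagen gene counts once over all its promoters there, while the other share counts each promoter, so the units differ. A CCAAT box was in 13 (37.1%, against 33.8%), a TATA box in 5 (14.3%, against 12.4%) and an AP-1 site in 1 (2.86%, against 6.75%). The E-box (CANNTG), the motif read by myogenic factors, was in 19 (54.3%, against 66.2%). These are matches of letters in a fixed window and not binding sites.

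Values are FPKM, fragment counts scaled to gene length and to the library's total, so levels of different chains can be set side by side per length. The steps between low values gave back whole fragments, and the libraries held 16.3 to 20.2 M fragments (M for mega). Averaged over all libraries, 8 of the 44 genes reached 10 FPKM or more, 8 had 1 to 10, 14 had 0.1 to 1 and 14 had under 0.1. The 16 genes averaging 1 FPKM or more were tested. Col9a1, a FACIT chain of cartilage, had no fragment in any library, which allows a level of up to 0.0388 to 0.0479 FPKM per library (3 fragments). These limits, and the intervals on fragments given below, cover counting error only. Myotube markers were abundant: all 12 on the list were tested, and Myog and Acta1 averaged 2425 and 6893 FPKM.

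The replicates of a group correlated at 0.992 to 0.996 on the log scale, except the control 12 h pair at 0.947. In control 12 h replicate 2, transcripts rich in G and C were high relative to the other libraries, by 0.0473 on the log2 scale per percent GC, against slopes of -0.013 to 0.008 in the other 7. Collagen transcripts are GC-rich, with a median of 56.2% in the 16 tested genes against 50.2% in all tested genes with a known transcript. The 3 tested chains that were lower in this library than in its partner by more than 0.3 were Col19a1 (log2 difference -1.35), Col8a1 (-0.52) and Col25a1 (-0.38). Their GC contents were 51.9%, 46.8% and 45.9%, and the other 13 lay between -0.005 and 0.34. Across the 16 genes GC content and this difference had r = 0.474 and rho = 0.576, which is a description of 1 pair of libraries across genes that share them.

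**Figure D1:**
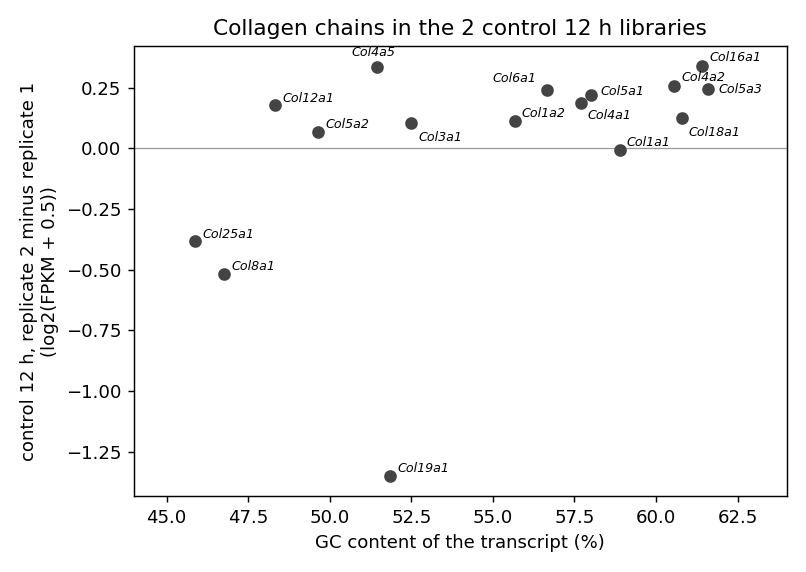
Each point is 1 of the 16 tested collagen genes; the x axis is the GC content of its transcript (%) and the y axis the control 12 h difference, replicate 2 minus replicate 1, on log2(FPKM + 0.5). Col19a1 (-1.35), Col8a1 (-0.52) and Col25a1 (-0.38) lie below the zero line and the other 13 at -0.005 or above.

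With MPC EVs at 12 h, transcripts of both type I chains, of the type V chains Col5a2 and Col5a3 and of the type VI chain Col6a1 fell, and that of the transmembrane collagen Col25a1 rose. At 24 h Col1a2, Col5a2, Col5a3 and Col6a1 were again lower, and the FACIT chain Col12a1 fell by 1.54 on the log2 scale. None of the 3 tested type IV chains passed at either time. Fold changes here are on log2(FPKM + 0.5) ± SE, a scale that compresses changes of low genes, and p-values are from limma with Benjamini-Hochberg adjustment over the 10981 genes tested.

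At 12 h, 1 of the 16 tested collagen genes was higher and 5 were lower, while 4.36% of all tested genes were higher and 14.3% lower. The median log2 fold change was -0.11 over the collagen genes and -0.12 over all tested genes. With another scaling of the libraries (by the median ratio) the median of all genes was 0.01 and not -0.12. Values at 12 h thus carry a shift of about the distance between these 2 medians. That scaling called 6.7% of all genes higher and 4.99% lower, and 1 collagen gene higher and 4 lower. A GC and length correction called 3.73% and 2.95% of all genes, with the same 1 and 4 collagen calls, so the larger share of lower genes among all genes depends on the scaling. Groups did not overlap in 2 genes in the higher and 7 in the lower direction, against 17.1% and 45.0% of all genes. Leaving out either MPC EV 12 h library or any library of 24 h lowered the number of calls in limma, among all tested genes as among collagen genes. Leaving out control 12 h replicate 1 raised that number in both. A group of 1 library was then assumed to vary like the others. On the recovered fragments (limma-voom, chosen after seeing the data) 31 collagen genes could be tested and 10 passed (32.3%, against 15.1% of all genes).

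At 24 h, 0 of the 16 were higher by limma (2 at an unadjusted p under 0.05) and 5 were lower, while 2.61% of all tested genes were higher and 0.956% lower (3.57% in either direction). On recovered fragments 0 of 31 were higher (3 unadjusted) and 6 lower, with 2.16% and 0.786% of all genes (2.95% in all). The median was -0.17 over the collagen genes and -0.03 over all. Groups did not overlap in 6 genes in the higher and 9 in the lower direction, against 23.7% and 30.2% of all genes. Leaving out any library of 24 h or either MPC EV 12 h library lowered the number of calls in limma, among all tested genes as among collagen genes. Leaving out either control 12 h library raised that number in both.

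**Figure D2:**
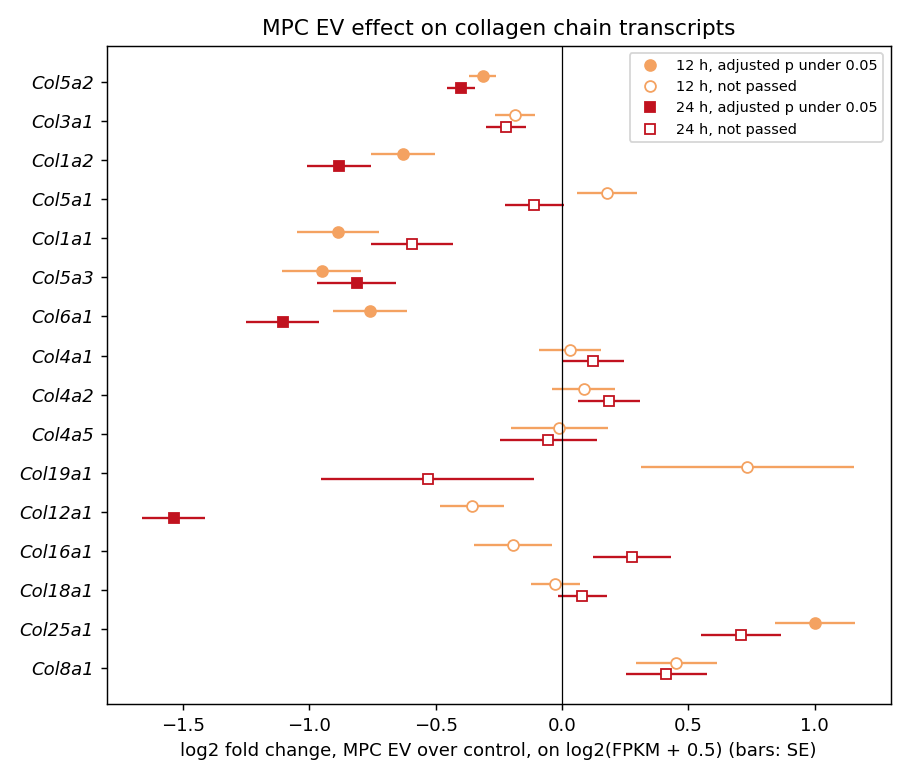
The log2 fold change of MPC EV over control on log2(FPKM + 0.5), with its SE as bars, for the 16 tested collagen genes at 12 h (circles) and 24 h (squares); filled symbols have an adjusted p under 0.05. Col12a1 at 24 h (-1.54) and Col25a1 at 12 h (1.00) are the extremes, and the type IV chains lie between -0.06 and 0.19.

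Of the 16 genes, 12 had the same sign of the MPC EV effect at both times, and the effects had r = 0.674 across genes that share libraries. The difference of the effects (24 h minus 12 h) passed in 0 of 16 collagen genes and in 0.0% of all tested genes by limma, with 1 collagen gene at an unadjusted p under 0.05. On recovered fragments it was 0 of 31, with 4 unadjusted. That 1 gene was Col12a1, whose effect was more negative at 24 h by 1.18 ± 0.177 (log2 difference -1.18, adjusted p = 0.108, limma). Without control 12 h replicate 1 it passed together with Col19a1, 2 genes in all, in a fit in which 3668 of the 10981 genes passed.

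Type I is the main fibrillar collagen of connective tissue, and both of its chains were measured. Col1a1 (ENSMUSG00000001506, chr11:94936224-94953042), its alpha-1 chain, had 8.08 and 8.05 FPKM in the control 12 h libraries and 3.4 and 5.0 with MPC EVs. At 24 h it had 8.98 and 9.40 in control and 6.19 and 5.66 with MPC EVs. At both times the libraries with MPC EVs lay below both control libraries. The log2 fold change was -0.89 ± 0.162 at 12 h (adjusted p = 0.0196, limma) and -0.59 ± 0.162 at 24 h, where it did not pass (adjusted p = 0.137, limma) except in a fit of only the libraries compared (adjusted p = 0.0181, limma). That same kind of fit lost the 12 h call (adjusted p = 0.150, limma). The 12 h call was lost without MPC EV 12 h replicate 1 (adjusted p = 0.0565, log2 fold change -0.64, limma) and without either control 24 h library (0.054 each).

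Col1a2 (ENSMUSG00000029661, chr6:4504814-4541544), the alpha-2 chain, had 12.9 and 14.0 FPKM in control 12 h and 7.43 and 9.72 with MPC EVs. At 24 h it had 17.1 and 17.7 in control and 9.15 and 9.30 with MPC EVs. Its groups did not overlap at either time, and the 24 h libraries with MPC EVs were both below every control library. It fell at 12 h (-0.63 ± 0.126, adjusted p = 0.0243, limma) and at 24 h (-0.88 ± 0.126, adjusted p = 0.0213, limma). A fit of only the libraries compared lost the 12 h call (adjusted p = 0.164, limma). The 12 h call was lost without MPC EV 12 h replicate 1 (adjusted p = 0.0758, limma) or any of the 4 libraries of 24 h (0.0569 to 0.0613), and the 24 h call without any of those 4 (0.132 to 0.182). The ratio of Col1a2 to Col1a1 FPKM was 1.48 to 2.19 over the libraries, so per length the alpha-2 chain was the more abundant transcript in all 8.

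Col3a1 (ENSMUSG00000026043, chr1:45311538-45349706), the chain of type III collagen that co-assembles with type I, had 16.8 and 18.1 FPKM in control 12 h, 14.5 and 16.1 with MPC EVs at 12 h, 21.4 and 22.7 in control 24 h and 18.6 and 19 with MPC EVs at 24 h. Both libraries with MPC EVs were below both controls at each time, by less than for type I. The log2 differences of -0.18 ± 0.079 and -0.22 ± 0.079 did not pass (adjusted p = 0.142 and 0.254, limma) and had unadjusted 95% intervals of -0.38 to 0.01 and -0.41 to -0.03.

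Among type V chains the 3 genes did not move alike. Col5a2 (ENSMUSG00000026042, chr1:45374321-45503282) was the most abundant collagen transcript, with 52.6 and 55.1 FPKM in control 12 h, 42.5 and 43.9 with MPC EVs at 12 h, 42.1 and 42.1 in control 24 h and 31.9 and 31.6 with MPC EVs at 24 h. It is the alpha-2 chain of type V. Its replicates lay close together and no groups overlapped within a time, and it fell by 0.31 ± 0.054 at 12 h and by 0.40 ± 0.054 at 24 h on the log2 scale (adjusted p = 0.0176 each, limma). The 12 h call was lost with median-ratio scaling, quantile normalization, a GC and length correction, a fit of only the libraries compared and voom with median-ratio scaling, and without any MPC EV library or either control 24 h library (adjusted p = 0.0502 to 0.0926, limma). The 24 h call was lost with the GC and length correction, without any of the 4 libraries of 24 h (0.14 to 0.181) and without MPC EV 12 h replicate 2 (0.05).

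Col5a3 (ENSMUSG00000004098, chr9:20770050-20815067), the alpha-3 chain of type V, was a minor transcript with 2.26 and 2.77 FPKM in control 12 h and 0.962 and 1.15 with MPC EVs. At 24 h it had 1.44 and 1.26 in control and 0.611 and 0.50 with MPC EVs. The control libraries of 24 h were thus already below those of 12 h, and the MPC EV libraries were below the controls at each time. It fell at 12 h (-0.95 ± 0.156, adjusted p = 0.0151, limma) and at 24 h (-0.81 ± 0.156, adjusted p = 0.0489, limma). A fit of only the libraries compared lost the 12 h call (adjusted p = 0.127, limma). The 12 h call was lost without either MPC EV 12 h library (0.0664 and 0.0861). The 24 h call was lost in 6 of 12 other settings and without any library other than the 2 control 12 h libraries (adjusted p = 0.0996 to 0.32, limma).

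Col5a1 (ENSMUSG00000026837, chr2:27886425-28039514), the alpha-1 chain that most type V molecules contain, had 10.1 and 11.8 FPKM in control 12 h, 11.3 and 13.6 with MPC EVs at 12 h, 10.8 and 10.4 in control 24 h and 10.2 and 9.47 with MPC EVs at 24 h. Its groups overlapped at 12 h, and at 24 h the libraries with MPC EVs were the lower ones. The log2 differences were 0.18 ± 0.118 and -0.11 ± 0.118 (adjusted p = 0.293 and 0.842, limma). The ratio of Col5a2 to Col5a1 was 4.94 ± 0.389 (SD, n = 2) in control and 3.49 ± 0.373 with MPC EVs at 12 h, and 3.96 ± 0.107 and 3.24 ± 0.141 at 24 h. The other 5 fibrillar genes were under the level tested, with means of 0.0478 (Col2a1) to 0.297 FPKM (Col11a2). Col5a2 and Col3a1 are neighbours with 24614 bases between their 3′ ends.

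Summed over its 11 chains, the fibrillar class had 106.9 ± 4.94 FPKM in control and 85.4 ± 6.47 with MPC EVs at 12 h, and 103.6 ± 0.983 and 77.1 ± 0.855 at 24 h (SD, n = 2). That is 0.799 of the control at 12 h and 0.744 at 24 h, or 0.879 and 0.756 with median-ratio scaling. The fibrillar share of all collagen FPKM was 49.6% to 52.7% in the 4 control libraries and 40.2% to 44.9% with MPC EVs. Col5a2 held more of these sums than any other chain. Its means were 53.8 FPKM in control and 43.2 with MPC EVs at 12 h, and 42.1 and 31.8 at 24 h. Its 12 h call was lost under other scalings, as given above. Class sums are described with no test.

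**Figure D3:**
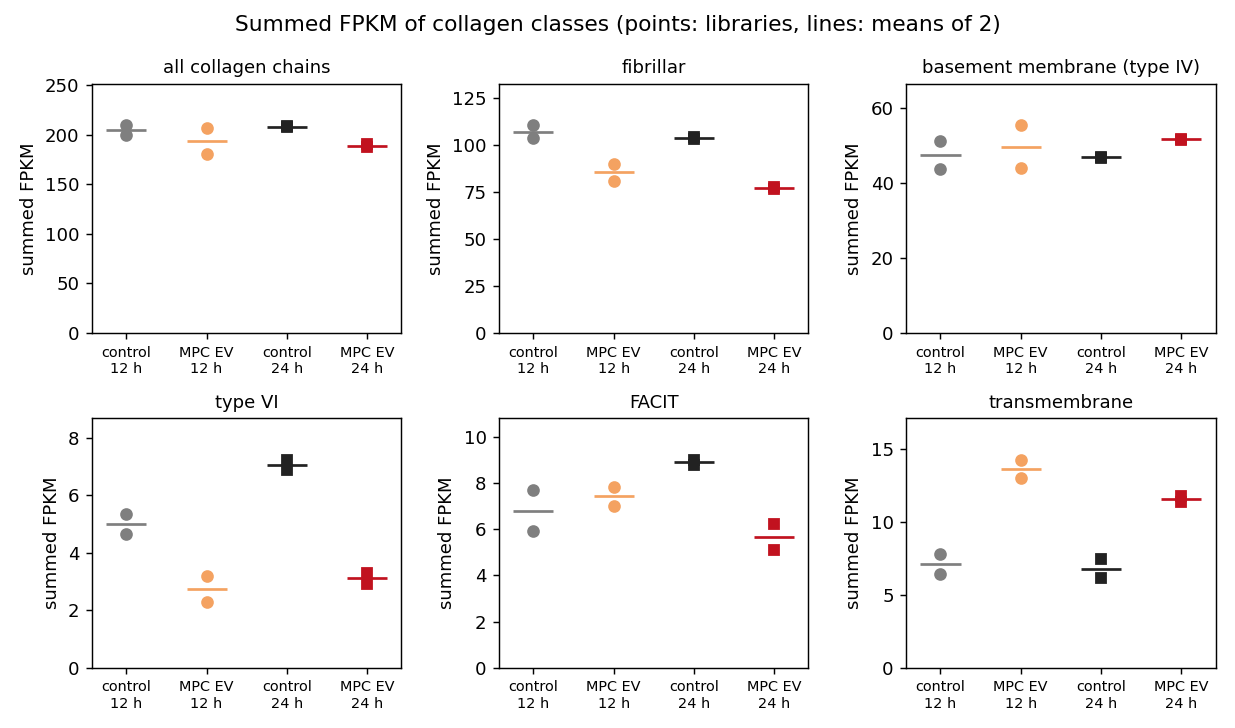
Summed FPKM of all collagen chains and of 5 classes, by library (points) and group mean of 2 (lines), each panel on its own linear axis from 0. The fibrillar sums with MPC EVs (76.5 to 90.0) lie below all control sums (102.9 to 110.4), while the type IV sums overlap at 12 h.

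Type VI collagen, whose loss causes congenital muscle disease, was low and led by 1 chain. Col6a1 (ENSMUSG00000001119, chr10:76708792-76726168), its alpha-1 chain, had 3.68 and 4.45 FPKM in control 12 h and 1.97 and 2.42 with MPC EVs. At 24 h it had 6.04 and 5.63 in control and 2.24 and 2.66 with MPC EVs. The groups did not overlap at either time. It fell at 12 h (-0.76 ± 0.145, adjusted p = 0.0223, limma) and at 24 h (-1.11 ± 0.145, adjusted p = 0.0158, limma), and the 2 falls were not shown to differ (log2 difference -0.35, 95% interval -0.84 to 0.15). A fit of only the libraries compared lost the 12 h call (adjusted p = 0.150, limma). The 12 h call was lost without either MPC EV 12 h library (0.0672 and 0.103) or either control 24 h library (0.0574 each), and the 24 h call without any of the 4 libraries of 24 h (adjusted p = 0.0826 to 0.152, limma).

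Type VI assembly needs an alpha-2 and a long alpha-3 chain as well, and their transcripts were under 1 FPKM on average. Col6a2 (chr10:76595762-76623630) had 40 and 35 fragments in the control 12 h libraries and 2 and 18 with MPC EVs, and 57 and 41 in control and 11 and 12 with MPC EVs at 24 h. Every library with MPC EVs was below every control library, but the 12 h pair was far apart, and voom did not pass either difference (log2 fold change -2.34, adjusted p = 0.0766, and -1.80, adjusted p = 0.246). As fragments summed per group and scaled to the libraries' totals, control was 3.47 times MPC EV at 12 h (exact 95% interval 2.09 to 5.99) and 3.66 times at 24 h (2.31 to 6.05). Col6a3 (chr1:90765923-90843971) had 93 and 111, 52 and 102, 118 and 163, and 86 and 94 fragments in control and MPC EV at 12 h and control and MPC EV at 24 h, overlapping at 12 h only, and did not pass (adjusted p = 0.421 and 0.655, voom). Col6a4, Col6a5 and Col6a6 had 12, 1 and 6 fragments in all 8 libraries together.

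Summed over the 6 chains, type VI had 5.01 ± 0.490 and 2.74 ± 0.616 FPKM at 12 h and 7.05 ± 0.258 and 3.11 ± 0.279 at 24 h in control and MPC EV (SD, n = 2). These sums are mostly Col6a1, whose ratio to Col6a3 was 4.30 to 10.2 and to Col6a2 8.48 to 83.9, the highest in MPC EV 12 h replicate 1 with its 2 Col6a2 fragments. Col6a1 and Col6a2 lie on the same strand with 85161 bases between them.

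Basement membrane chains were abundant and their main pair did not pass any of the 5 comparisons. Col4a1 (ENSMUSG00000031502, chr8:11198423-11312826) had 26.1 and 29.8 FPKM in control 12 h, 25.3 and 32.3 with MPC EVs at 12 h, 28.3 and 28.5 in control 24 h and 31.1 and 30.9 with MPC EVs at 24 h. Col4a2 (ENSMUSG00000031503, chr8:11312805-11449287), its partner in the same trimer, had 16.3 and 19.5, 17.1 and 21.0, 16.5 and 16.5, and 18.7 and 19.1 in that order. At 12 h the groups overlapped for both, and at 24 h both MPC EV libraries were slightly above both controls.

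The log2 differences at 12 h were 0.03 (95% interval -0.26 to 0.33) for Col4a1 and 0.09 (-0.21 to 0.38) for Col4a2. At 24 h they were 0.12 (-0.17 to 0.42) and 0.19 (-0.11 to 0.48), so changes up to the ends of these unadjusted intervals could not be told from none. The ratio of Col4a1 to Col4a2 stayed between 1.48 and 1.72 in the 8 libraries. The 2 genes are transcribed away from each other and their annotations share 22 bases, which a library without strand information cannot assign to one or the other. Col4a5 (ENSMUSG00000031274, chrX:141475385-141689234), a chain of the specialised basement membrane trimers, had 1.09 to 1.61 FPKM with overlapping groups at both times (adjusted p = 0.966 and 0.965, limma).

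Col4a3 and Col4a4, whose shared start region is printed above, were under 1 FPKM. Col4a3 (chr1:82586921-82722059) had 32 and 17 fragments in control 12 h, 56 and 56 with MPC EVs at 12 h, 40 and 40 in control 24 h and 36 and 51 with MPC EVs at 24 h. Col4a4 (chr1:82448423-82586849) had 16 and 21, 34 and 42, 40 and 39, and 27 and 33. For both, the 2 control 12 h libraries were the lowest group. On recovered fragments both rose at 12 h with MPC EVs, Col4a3 by 1.37 ± 0.333 (adjusted p = 0.0423, voom) and Col4a4 by 1.14 ± 0.262 (adjusted p = 0.0371, voom), against 4.2% of all genes higher. At 24 h they did not pass (log2 fold change 0.33 and -0.18), and between 12 h and 24 h in control Col4a4 rose by 1.03 ± 0.260 (adjusted p = 0.0414, voom). C430014B12Rik overlaps Col4a3 on the other strand, and the 2 cannot be told apart without strand. Col4a6 had 23 fragments in all libraries together.

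**Figure D4:**
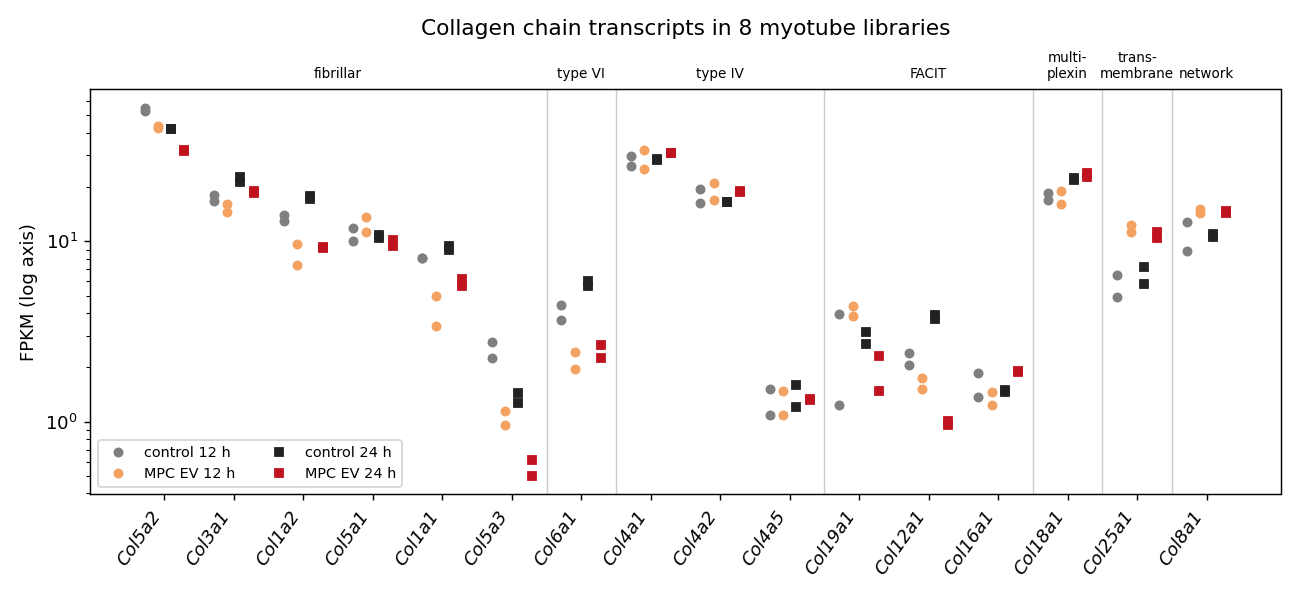
FPKM on a log axis of the 16 tested collagen genes, by class, with 1 symbol per library (circles 12 h, squares 24 h). For Col1a1, Col1a2, Col5a2, Col5a3, Col6a1 and Col12a1 both MPC EV symbols lie below both control symbols at each time, and for Col25a1 and Col8a1 above.

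Col12a1 (ENSMUSG00000032332, chr9:79598991-79718831), the FACIT chain of type XII that sits on type I fibrils and whose loss causes a myopathy with lax joints, was higher at 24 h than at 12 h in control and lower with MPC EVs. It had 2.06 and 2.39 FPKM in control 12 h and 3.89 and 3.72 in control 24 h, with 882 and 865 fragments at the later time. With MPC EVs it had 1.51 and 1.75 at 12 h and 0.963 and 1.00 at 24 h, with 181 and 208 fragments at the later time. The 24 h MPC EV libraries were the lowest of the 8 and the 24 h control libraries the highest.

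At 24 h Col12a1 was lower with MPC EVs by 1.54 ± 0.125 (log2 fold change -1.54, 0.345 of control, adjusted p = 0.00344, limma), and on fragments the log2 fold change was -1.95 ± 0.126 (adjusted p = 0.00426, voom). At 12 h it did not pass (-0.36 ± 0.125, adjusted p = 0.0907, limma) but passed on fragments (-0.45 ± 0.115, adjusted p = 0.0472, voom). The 12 h difference was -0.45 without control 12 h replicate 1 and -0.27 without replicate 2. The 24 h call held under all 12 other settings that tested it and was lost without either control library of 24 h (adjusted p = 0.0525 without replicate 1 and 0.0517 without replicate 2, limma) and without replicate 1 of the MPC EV libraries of 24 h (0.0509), at log2 fold changes of -1.51 to -1.56. 4930562D21Rik overlaps the gene on the other strand.

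Col19a1 (ENSMUSG00000026141, chr1:24261890-24587472), a FACIT chain found near basement membranes and made by differentiating muscle cells, had 3.93 and 1.24 FPKM in control 12 h, 3.87 and 4.38 with MPC EVs at 12 h, 2.70 and 3.15 in control 24 h and 1.49 and 2.32 with MPC EVs at 24 h. The control 12 h pair was the widest of any tested collagen gene, with the low value in the GC-shifted library. Neither difference passed (0.73 ± 0.422 and -0.53 ± 0.422, adjusted p = 0.238 and 0.734, limma). The 12 h difference was also 0.73 with the GC and length correction. The 12 h difference rested on the control 12 h pair: it was 1.41 without replicate 1 of that pair and 0.06 without replicate 2. Col16a1 (ENSMUSG00000040690, chr4:130047840-130099283), a fibril-associated chain of many tissues, had 1.37 and 1.87, 1.23 and 1.46, 1.46 and 1.5, and 1.89 and 1.91 FPKM in control and MPC EV at 12 h and control and MPC EV at 24 h. Its groups overlapped at 12 h and not at 24 h, and it passed neither (adjusted p = 0.364 and 0.537, limma). Its 12 h difference was -0.20, and 0.045 with the GC and length correction. The other 6 FACIT genes had means of 0 to 0.424 FPKM, the highest being Col20a1.

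Col18a1 (ENSMUSG00000001435, chr10:77052178-77166548), a basement membrane multiplexin and the source of endostatin, had 17.0 and 18.5 FPKM in control 12 h, 16 and 18.9 with MPC EVs at 12 h, 22.3 and 21.9 in control 24 h and 22.7 and 24.1 with MPC EVs at 24 h. The 12 h libraries all lay below the 24 h libraries, whatever the treatment. The MPC EV differences were -0.03 (95% interval -0.26 to 0.20) and 0.08 (-0.15 to 0.31) on the log2 scale. The 12 h value was 0.11 with median-ratio scaling and 0.18 with the GC and length correction. Slc19a1 overlaps the gene on the other strand. Col15a1, the other multiplexin, averaged 0.0927 FPKM.

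Col25a1 (ENSMUSG00000058897, chr3:130131501-130599877) encodes a transmembrane collagen that skeletal muscle needs for its innervation by motor axons. It had 6.52 and 4.89 FPKM in control 12 h and 11.2 and 12.4 with MPC EVs, and 5.78 and 7.17 in control and 10.5 and 11.3 with MPC EVs at 24 h. All 4 libraries with MPC EVs were above all 4 control libraries. It rose at 12 h by 1.00 ± 0.158 (adjusted p = 0.0138, limma), and at 24 h the log2 difference of 0.71 ± 0.158 did not pass (adjusted p = 0.077, limma).

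Without control 12 h replicate 2, in which this GC-poor transcript was low, Col25a1 was higher by 0.81 at 12 h. The 12 h call was lost without MPC EV 12 h replicate 1 or replicate 2, at log2 fold changes of 1.07 and 0.93. The 24 h difference passed with quantile normalization, with a GC and length correction and in a fit of only the libraries compared. The fit of only the libraries compared lost the 12 h call (adjusted p = 0.113, limma). Of the 12 myotube markers, 5 were higher at each time and none passed as lower, while 4.36% of all tested genes were higher at 12 h and 2.61% at 24 h. Among the 5 were Myh3, an embryonic myosin (log2 fold change 1.5 and 1.88), and Actn2 (1.64 and 2.71). The part of these markers in the Col25a1 difference was not tested.

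Col13a1 (chr10:61838236-61979108), a transmembrane collagen that stabilises the neuromuscular junction, averaged 0.856 FPKM, just under the level tested. It had 61 and 85 fragments in control 12 h, 82 and 84 with MPC EVs at 12 h, 13 and 10 in control 24 h and 34 and 28 with MPC EVs at 24 h. Every 24 h library was below every 12 h library. On fragments it fell with time in control by 2.66 ± 0.344 on the log2 scale (adjusted p = 0.0045, voom) and with MPC EVs by 1.36 ± 0.255 (adjusted p = 0.0190, voom). The 24 h libraries with MPC EVs were above the controls, but that difference did not pass (1.61 ± 0.378, adjusted p = 0.0909, voom). The transmembrane class summed to 7.11 ± 0.970 and 13.6 ± 0.878 FPKM at 12 h and 6.79 ± 0.909 and 11.6 ± 0.331 at 24 h in control and MPC EV (SD, n = 2), most of it Col25a1.

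Col8a1 (ENSMUSG00000068196, chr16:57624258-57754737), a short chain of network-forming type VIII collagen, had 12.8 and 8.80 FPKM in control 12 h, 14.4 and 15.1 with MPC EVs at 12 h, 10.6 and 11 in control 24 h and 14.4 and 14.7 with MPC EVs at 24 h. The 4 libraries with MPC EVs were all above the 4 controls. The differences of 0.45 ± 0.160 and 0.41 ± 0.160 on the log2 scale did not pass (adjusted p = 0.0922 and 0.308, limma), with unadjusted 95% intervals of 0.07 to 0.84 and 0.03 to 0.80. Without control 12 h replicate 1 the 12 h difference was 0.71, and without replicate 2 it was 0.19. The 24 h difference passed in a fit of only the libraries compared (adjusted p = 0.0215, limma), which called 4.47% of all tested genes higher.

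Its partner chain Col8a2 (ENSMUSG00000056174, chr4:126286793-126314330) showed the other direction at a much lower level, averaging 0.226 FPKM. It had 18 and 51 fragments in control 12 h and 2 and 3 with MPC EVs, and 39 and 40 in control and 0 and 1 with MPC EVs at 24 h. The fragment of the second 24 h library was the only one among 34.3 M fragments of that group, and a count of 0 allows up to 0.0424 FPKM in the first. On fragments it fell at 12 h (log2 fold change -3.29 ± 0.819, adjusted p = 0.0445, voom) and at 24 h (adjusted p = 0.0271, voom), against 10.9% and 0.786% of all genes lower. As fragments summed per group and scaled to the libraries' totals, control was 12.8 times MPC EV at 12 h (exact 95% interval 5.21 to 40.5) and 67.9 times at 24 h (11.8 to 2717). Col8a2 was not tested on FPKM, since its mean was under 1.

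**Figure D5:**
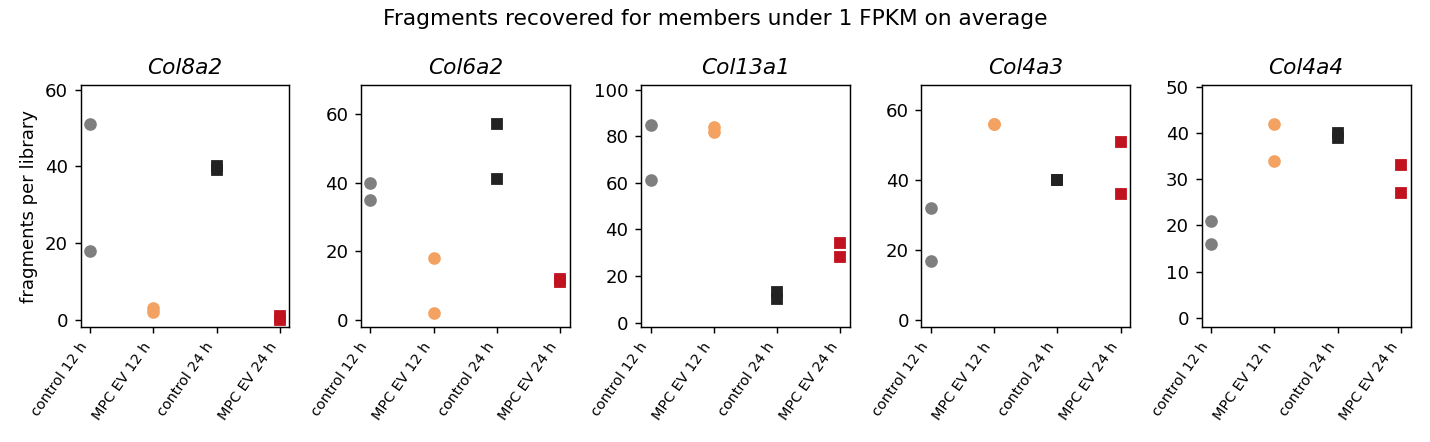
Recovered fragments per library for 5 collagen genes with a mean under 1 FPKM, by group (linear axes, 2 libraries per group). Col8a2 has 0 to 3 fragments in the MPC EV libraries against 18 to 51 in control, and Col13a1 has 10 to 34 at 24 h against 61 to 85 at 12 h.

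Col7a1, the anchoring fibril chain, had 84 to 137 fragments and passed in no comparison on fragments. Col10a1, a chain of growing cartilage, averaged 0.433 FPKM and passed in none either. Col26a1, the most abundant of the 2 other chains, had 0.883 and 1.01, 1.18 and 0.765, 0.821 and 0.374, and 0.463 and 0.540 FPKM, with overlapping groups at each time. The remaining members with a mean under 0.1 FPKM, 14 in all with Col9a1, included Col2a1 and Col9a3 of cartilage, Col17a1 of epithelial junctions and Col14a1, and each had at most 110 fragments in the 8 libraries together.

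Between 12 h and 24 h in control myotubes, 2 of the 16 tested collagen genes rose and 2 fell, while 7.54% of all tested genes rose and 10.3% fell. Col12a1 (log2 fold change 0.66 ± 0.125, adjusted p = 0.0165, limma) and Col3a1 (0.33 ± 0.079, adjusted p = 0.0367, limma) rose. Col5a2 (-0.35 ± 0.054, adjusted p = 0.00844, limma) and Col5a3 (-0.70 ± 0.156, adjusted p = 0.028, limma) fell. The Col3a1 call was lost with no filter (adjusted p = 0.0554), quantile normalization (0.0504), crossed replicate numbers (0.0586), the GC and length correction (0.0729) and only the libraries compared (0.132, limma). The Col12a1 rise was lost with quantile normalization (adjusted p = 0.0828), the GC and length correction (0.155) and only the libraries compared (0.0859, limma). The Col5a3 fall was lost in those 3 settings (adjusted p = 0.0581, 0.0663 and 0.114), with no filter (0.0629) and with the replicate block (0.0561, limma), and the Col5a2 fall only in the fit of the libraries compared (adjusted p = 0.0849, limma). Leaving out any library of 24 h lowered the number of calls, among all tested genes as among collagen genes, and leaving out either control 12 h library raised it. On recovered fragments 4 rose and 3 fell, with 7.52% and 9.3% of all genes. Without control 12 h replicate 2 the Col5a3 fall was 0.58 (log2 fold change -0.58, adjusted p = 0.0732, limma).

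With MPC EVs, 1 collagen gene rose and 2 fell between the times, while 12.9% of all tested genes rose and 5.4% fell. With median-ratio scaling 7.43% of all genes rose and 7.64% fell, with 0 collagen genes rising and 4 falling. With the GC and length correction the shares were 5.12% and 5.74%, with 0 and 2 collagen genes, so the larger share of rises among all genes was not seen under either. Col18a1 rose (0.42 ± 0.096, adjusted p = 0.0318, limma), and Col12a1 (-0.52 ± 0.125, adjusted p = 0.0362, limma) and Col5a2 (-0.44 ± 0.054, adjusted p = 0.00482, limma) fell. The 2 falls called with the GC and length correction were other genes. They were Col5a1 (-0.37, adjusted p = 0.0420, limma) and Col5a3 (-0.68, adjusted p = 0.0332, limma). The Col18a1 call was lost with median-ratio scaling on FPKM (adjusted p = 0.0579, limma) and on fragments (0.0616, voom), with no filter (0.054), quantile normalization (0.0721) and the GC and length correction (0.183). The Col12a1 fall was lost with no filter (adjusted p = 0.0904), quantile normalization (0.0862), the replicate block (0.0573), the GC and length correction (0.221) and only the libraries compared (0.0524, limma). Col5a2 was lower at 24 h in both treatments, but its call with MPC EVs was lost with the GC and length correction (adjusted p = 0.0608, limma). The time effects on Col12a1, a rise in control and a fall with MPC EVs, differ by the same -1.18 as the MPC EV effects did, which did not pass (adjusted p = 0.108, limma). On recovered fragments 3 rose and 3 fell (10.0% and 4.76% of all genes), among them the rises of the low chains Col11a1 (1.83, adjusted p = 0.049, voom), from 4 and 9 to 26 and 19 fragments, and Col20a1 (1.5, adjusted p = 0.0417, voom), from 17 and 16 to 33 and 62. Leaving out 1 library could change the number of calls, among all tested genes as among collagen genes. This was so even for libraries of neither group compared. The comparisons over time share their libraries with those of MPC EV against control.

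Collagen chains need a set of enzymes and carriers before they can be secreted. Of 19 genes for folding and hydroxylation, 18 were tested: at 12 h 1 was higher and 5 lower, and at 24 h 1 and 1 (all genes at 12 h 4.36% and 14.3%, at 24 h 2.61% and 0.956%). P4ha1, a catalytic subunit of prolyl 4-hydroxylase, rose at both times (0.55 and 0.42, adjusted p = 0.00716 and 0.0306, limma), and the alternative subunit P4ha3 fell at both (-1.19 and -1.39, adjusted p = 0.00854 and 0.00997, limma). P4ha3 had 1.44 and 1.53 FPKM in control 12 h, 0.336 and 0.408 with MPC EVs, 2.74 and 2.10 in control 24 h and 0.586 and 0.625 with MPC EVs, so its groups were far apart. Fkbp10, a collagen chaperone, fell at 12 h (-0.55, adjusted p = 0.00948, limma). The medians of the list were -0.17 and -0.05.

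Of 18 genes for export, propeptide cleavage and crosslinking, 15 were tested, with 0 higher and 3 lower at 12 h and 1 higher and 1 lower at 24 h (medians -0.08 and -0.13), beside the same shares of all genes (4.36% and 14.3%, then 2.61% and 0.956%). Creb3l1, a membrane-bound transcription factor known to drive type I collagen genes in bone, had 31.1 and 33.6 FPKM in control 12 h, 12.0 and 15.7 with MPC EVs, 24.0 and 24.4 in control 24 h and 12.4 and 11.4 with MPC EVs. It fell at both times (-1.21 and -0.99, adjusted p = 0.00541 and 0.0149, limma). The procollagen C-proteinase Bmp1 (-0.38) and its enhancer Pcolce2 (-0.57) fell at 12 h, and the N-proteinase Adamts14 rose at 24 h (0.86, adjusted p = 0.00559, limma).

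Of 13 collagen receptors, 7 were tested: the kinase Ddr1 fell at 12 h (-0.57, adjusted p = 0.0155, limma), and Antxr2, a receptor for type IV and VI collagen, rose at 24 h (0.50, adjusted p = 0.0201, limma). The list medians were 0.09 and -0.16. Among all genes, limma called 4.36% higher and 14.3% lower at 12 h, and 2.61% and 0.956% at 24 h. Of 16 partners of type IV collagen in the basement membrane, 12 were tested, with 2 higher and 1 lower at 12 h and 1 higher and 0 lower at 24 h (medians 0.18 at both times), with the shares of all genes as above. The laminin chain Lamb2 (0.35) and nidogen Nid2 (0.65) rose and Lamb3 (-0.69) fell at 12 h, and Lamb1 rose at 24 h (0.76, adjusted p = 0.0139, limma).

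Primary cultures can hold other cells, and in bulk RNA fewer cells of a type and less RNA per cell cannot be told apart. Of 16 fibroblast markers, 6 were tested: Islr fell at 12 h (-1.69, adjusted p = 0.00363, limma) and at 24 h (-2.31, adjusted p = 0.00212, limma), and Cd34 rose at 24 h (0.68, adjusted p = 0.0305, limma). The summed FPKM of the 16 markers was 24.0 to 26.7 in control and 18.7 to 19.3 with MPC EVs at 12 h. At 24 h it was 32.7 to 33.5 and 25.4 to 27.9, so it was lower with MPC EVs at both times. The median log2 fold change of the 6 tested markers was -0.21 at 12 h and -0.13 at 24 h. Over all tested genes it was -0.12 and -0.03. Beside the marker calls, limma called 4.36% of all genes higher and 14.3% lower at 12 h, and 2.61% and 0.956% at 24 h. Lum, Tcf21, Fap and Gli1, 4 of the 16, were under 0.1 FPKM in every library, 0 of the 16 had no fragment at all, and Pdgfra had 0.65 to 1.23 FPKM. The part of fibroblasts in the collagen differences was not tested.

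Of 10 pericyte and smooth muscle markers 5 were tested, with 1 higher and 1 lower at each time: Abcc9 rose at both (0.76 and 0.82), Tagln fell at 12 h (-0.58) and Notch3 at 24 h (-0.66). Their sums, mostly Acta2, were 1684 to 2011 and 1718 to 1793 FPKM at 12 h and 892 to 955 and 775 to 879 at 24 h. Of 5 glial markers only Ngfr was tested, and it fell at 12 h (-2.83, adjusted p = 0.00245, limma), taking the list from 5.75 to 6.22 FPKM in control to 0.944 to 1.1. Tendon and cartilage markers (2 of 7 tested, none passed) summed to 96.3 to 96.4 and 107.2 to 117.1 FPKM at 12 h, nearly all Scx. Endothelial and leukocyte markers summed to 0.171 to 0.507 and 1.11 to 2.86 FPKM, with none tested. Of 8 muscle progenitor markers 7 were tested, with 2 higher and 1 lower at 12 h and 2 higher at 24 h. Of 7 housekeeping genes Actb fell at 12 h (-0.39, adjusted p = 0.0301, limma). Both stand beside the same shares of all genes. The part of these cells in the collagen differences was not tested.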

How the data were processed

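RNA of 8 myotube libraries, 2 per group, was measured with paired-end sequencing of libraries that keep no strand. The authors deposited FPKM values in 1 file, each library in its own column. Per the submitters' processing notes the tools were HISAT2 and DESeq2 (its version listed as 2) and the build mm10, without their roles. Which program counted, with what annotation and filters, is not given in the sources used here. An FPKM value divides by the library's total, so a change in a few abundant transcripts moves all other values.

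Ensembl IDs were matched to symbols in GENCODE vM21 (34490 of 35275 had one). For 37 of the 44 collagen genes the length behind the FPKM equalled that of the longest annotated coding transcript. In all 21406 genes with a value above 0 (100.0%), the values gave whole fragments within 0.01. The control libraries held 18.7 and 19.9 M fragments (M for mega) at 12 h and 19.7 and 20.2 at 24 h, and the MPC EV libraries 17.3 and 18.3 at 12 h and 16.3 and 18.0 at 24 h.

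The test took genes averaging 1 FPKM or more, on log2(FPKM + 0.5), in R 4.3.3 with limma 3.58.1 (lmFit and trended eBayes), two-sided, over all 8 libraries with 4 residual degrees of freedom, Benjamini-Hochberg adjustment and a threshold of 0.05. Voom was run on recovered fragments with a mean of at least 10 (12969 genes). Voom, its median-ratio scaling and a crossed replicate block were added after seeing the data. The steps were tested on simulated data. Other alternatives were pseudocounts of 0.1 and 1, minimum means of 0.1 and 5 FPKM or none, 2 other scalings, no variance trend, a GC and length correction, a replicate block, a fit of only the groups compared, and leaving out each library. Exact 95% intervals for a ratio of fragments are conditional binomial. Tables were made in Python 3.11.15 (pandas 2.3.3, numpy 2.4.6) and drawn with matplotlib 3.10.9.

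The collagen genes, classes and lists were chosen with earlier results of these data known. Values in every library are given for each tested member that passed in any comparison and for the most abundant of each class, and low members with few fragments were added after their values were seen. Of each other list, up to 3 genes with the smallest adjusted p per MPC EV comparison are named where they passed.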

Additional observations from a re-analysis of the deposited data

How the results depend on the processing

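None of the 18 calls of single collagen genes changed its direction under the alternatives run. Uncalled values near 0 did: among the 16 tested genes the sign changed under at least 1 alternative in 5 for MPC EV against control at 12 h, 1 at 24 h, 9 for the difference of the effects, 8 for time in control and 5 for time with MPC EVs, and none passed with the other sign. Called collagen genes numbered 6 for MPC EV against control at 12 h, 5 at 24 h, 0 for the difference of the effects, 4 for time in control and 3 for time with MPC EVs. At 12 h a fit of only the libraries compared gave 0 (6 at an unadjusted p under 0.05, limma) and called 11 of all 10981 tested genes. Voom on fragments gave 10, with 1957 of 12969 of all genes. At 24 h a minimum mean of 5 FPKM gave 2 (all genes 295 of 7685), with fewer genes tested. For time in control that minimum gave 2 (all genes 1587 of 7685) and quantile normalization 1 (1872 of 10981). Only the libraries compared gave 0 there (7 unadjusted, limma), with 480 of all 10981 genes. Voom gave 7 and voom with median-ratio scaling 8 (all genes 2181 and 2330 of 12969). For time with MPC EVs quantile normalization gave 1 (1522 of 10981) and voom 6 (1917 of 12969). Beyond fewer genes or libraries, the cause of these shifts was not tested. Leaving out 1 library could change the number of collagen calls in every comparison, and with it the number among all tested genes. With median-ratio scaling the ratio of MPC EV to control sums went from 0.946 to 1.04 for all collagen chains at 12 h, which turns its direction, and from 0.906 to 0.920 at 24 h, from 0.799 to 0.879 and from 0.744 to 0.756 for fibrillar chains at 12 h and 24 h, and from 1.05 to 1.15 and from 1.1 to 1.12 for type IV chains. That scaling moved the median gene at 12 h from -0.12 to 0.01, and relative to the median gene the 12 h differences were -0.77 for Col1a1, -0.20 for Col5a2 and 1.12 for Col25a1.

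With the replicate number as a block, 6 collagen genes were called at 12 h and 4 at 24 h. It gave 0 for the difference, 3 for time in control and 2 for time with MPC EVs. Of all 10981 tested genes, 1114, 183, 0, 1484 and 1391 were called in that order. The labels do not say that a number marks a shared culture, and same-numbered libraries deviated together with correlations of -0.613 to 0.241. Control 12 h and control 24 h had -0.271. With the numbers of control 24 h crossed, 4 collagen genes and 1509 of all tested genes were called for time in control. Few fragments limit the 28 chains under 1 FPKM, and 2 libraries per group limit every call.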
